A study of Mus musculus with 29 samples.

Results

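Messenger RNA of 3 fibroblast growth factor (FGF) ligands, Fgf3, Fgf4 and Fgf15, and of the 4 FGF receptor tyrosine kinases, Fgfr1, Fgfr2, Fgfr3 and Fgfr4, was followed across 9 groups of mouse cell cultures on 29 single-colour Agilent arrays. The members were taken by gene symbol, from a list chosen with earlier results of these data known. They are 7 of the 20968 genes the arrays name, read by 12 of 55681 probes. All 7 passed the filter on dim probes (well above background on every array of at least 1 group). ESC are HRHnG cells, an embryonic stem cell line that carries a pair of reporters, in 2i and LIF (3 arrays). Diff are those cells after 7 to 8 days of Activin, CHIRON and LIF, labelled primitive endoderm (3 arrays). Mid and Late are the expandable endoderm called nEnd, passaged from Diff and taken at passage 7 to 10 and passage 14 to 15 (3 arrays each). XEN are extraembryonic endoderm stem cells of a line of their own in standard XEN medium (3 arrays). 2iL are 3 other embryonic stem cell lines (HVMC, E14 and E14-NanogGFP, 1 array each) after at least 3 passages in 2i and LIF. NACL are the same lines after at least 3 passages in N2B27 plus Activin, CHIRON and LIF (4 arrays, HVMC on 2 of them). EpiSC are epiblast stem cells derived from embryonic stem cells and held in stable culture (3 arrays), and ADE are EpiSC cultures taken 4 days into their differentiation toward anterior definitive endoderm (4 arrays). For EpiSC and ADE the line is spelt HRHNG, which was read as HRHnG, so ESC, Diff, Mid, Late, EpiSC and ADE come from 1 parental line that carries both reporters. Each nEnd replicate is a separate differentiation and passage series. Replicates of 2iL are different lines, as are those of NACL apart from the 2 HVMC arrays, which were counted as independent. For ESC, Diff, XEN, EpiSC and ADE the labels do not say how replicates were separated. The p-values therefore measure only the spread between these samples, which may be technical in those groups.

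FGF ligands are secreted proteins that bind receptor tyrosine kinases together with heparan sulfate or a Klotho co-receptor, and the active receptor signals through Frs2, Grb2, Sos and Ras to the kinases Raf, Mek and Erk. In the mouse blastocyst, Fgf4 from epiblast precursors acts through Fgfr1 and Fgfr2 to drive their neighbours into primitive endoderm. The 2i medium blocks this route, since it pairs a Mek inhibitor with CHIRON, a Gsk3 inhibitor; the Activin, CHIRON and LIF medium carries no Mek inhibitor. Fgf15 is the mouse counterpart of human FGF19, an endocrine ligand that signals through Fgfr4 with beta-Klotho (Klb), and Fgf3 is a paracrine ligand of embryonic tissues.

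Fgf3, Fgf4 and Fgf15 lie next to each other on mouse chromosome 7, between Ano1 and LTO1 in the RefSeq order of protein-coding genes. RefSeq start regions (assembly GRCm38.p6; the arrays' own coordinates are on mm9 and were not used) were at hand for 5 of the 7 members. The 250 bases before the start are printed for Fgf4, the ligand with the largest fall from ESC to Diff, and for Fgfr3 and Fgfr4, the receptors with the largest rises. They are written 5′ to 3′ on the plus strand, which is the gene's own strand for all 3, from chr7:144861136-144861385 (Fgf4), chr5:33721474-33721723 (Fgfr3, the first of its starts) and chr13:55152568-55152817 (Fgfr4). Capitals mark the GC box letters GGGCGG or, read from the other strand, CCGCCC.
Fgf4: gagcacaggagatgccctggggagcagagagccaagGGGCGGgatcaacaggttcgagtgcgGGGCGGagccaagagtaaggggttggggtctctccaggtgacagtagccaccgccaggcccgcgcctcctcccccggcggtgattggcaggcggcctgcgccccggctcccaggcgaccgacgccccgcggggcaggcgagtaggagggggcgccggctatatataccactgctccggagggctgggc
Fgfr3: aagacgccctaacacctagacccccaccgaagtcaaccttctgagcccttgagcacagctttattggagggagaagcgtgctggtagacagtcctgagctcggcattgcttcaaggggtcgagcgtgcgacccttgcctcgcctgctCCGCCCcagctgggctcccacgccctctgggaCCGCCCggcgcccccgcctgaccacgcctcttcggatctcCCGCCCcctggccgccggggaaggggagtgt
Fgfr4: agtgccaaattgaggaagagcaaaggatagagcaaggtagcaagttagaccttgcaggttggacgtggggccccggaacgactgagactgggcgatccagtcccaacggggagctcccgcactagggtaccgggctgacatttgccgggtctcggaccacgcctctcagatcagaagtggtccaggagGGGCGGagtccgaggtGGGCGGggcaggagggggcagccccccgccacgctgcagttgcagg
These windows hold 2, 3 and 2 GC boxes and have a GC content of 71.2%, 66.8% and 64.0%, against a median of 52.4% over 32851 start regions. GC boxes occur in 32.7% of those regions. None of the 3 windows holds GATAA (22.6% of regions), ACAAT (27.7%) or ATTTGCAT (1.6%), searched on both strands. The Fgf3 window has no GC box and 1 GATAA, and the Fgfr2 window has no GC box. These matches describe letters in 1 window and say nothing of what binds there.

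A level is the log2 ratio of a probe's background-corrected signal to the array's 75th percentile, so 0 is the signal of a probe at that percentile, and levels are compared between groups for 1 probe, never between genes. Differences are log2 differences of group means with the standard error (SE) from limma, and calls were made where the Benjamini-Hochberg adjusted p, over 16342 genes, was under 0.05. The 75th percentile was 137 to 323 intensity units and each array had 49.2% to 79.7% of its probes well above background. Replicate arrays correlated at 0.956 or more over the genes tested. ESC, Diff, Mid, Late and XEN share no slide, scan day or scanner software version with 2iL, EpiSC, ADE and NACL, so array set and group cannot be told apart in any order of levels that crosses both sets. Each tested difference stays within a set, and a difference of differences sets 1 such difference against another. EpiSC against 2iL, and XEN against ESC or nEnd, also compare different cell lines, so line and cell state cannot be told apart there. Every called difference of a member kept its sign within each slide that held both groups (42 of 42 values). Among called differences only Fgf15 in ADE minus EpiSC and Fgfr2 in nEnd minus XEN had overlapping groups. For all others the sign within a slide was fixed in advance, so this count says little about slide effects. The labels were set against marker lists. The 6 primitive endoderm markers were Gata4, Gata6, Sox7, Sox17, Pdgfra and Dab2. They summed to 143 to 258 times the 75th percentile signal in Diff, Mid, Late and XEN. Their sum was 58.5 to 93.3 in ADE, where all 6 were well above background on every array. It was 2.18 to 2.39 in EpiSC, and at most 2.87 in ESC, 2iL and NACL. The 6 definitive endoderm markers (Cer1, Hhex, Foxa2, Cxcr4, Eomes and Gsc) summed to 280 to 394 in ADE. Their sum was 9.82 to 10.9 in EpiSC and 21.3 to 53.6 in Diff, Mid, Late and XEN. Such sums follow the brightest genes of a list. Cer1 and Gsc were well above background on no Mid, Late or XEN array, nor was Cxcr4 in XEN. From ESC to Diff 3 of the 6 rose and 1 fell, Gsc (-5.05). The 5 primed epiblast markers (Pou3f1, Otx2, Dnmt3b, Sox3 and Fgf5) summed to 396 to 572 in ADE, above their 113 to 129 in EpiSC. Of these 3 were called higher in ADE than EpiSC and 1 lower, Pou3f1 (-3.95). In Diff they summed to 77.7 to 119. Naive pluripotency markers still summed to 92.3 to 168 in Diff, against 357 to 373 in ESC. They summed to 53.9 to 68.7 in Mid and 63.6 to 77.4 in Late. Their sum was 37.7 to 49.1 in XEN, where Nanog and Prdm14 were on no array well above background. In these bulk cultures fewer cells of a type and less RNA per cell cannot be told apart. The 5 fibroblast markers were well above background on all EpiSC arrays (summed level 16.7 to 24.9) and reached 3.86 to 17.5 in ADE and 2.87 to 18.2 in NACL, against 1.72 to 2.74 in 2iL and at most 1.44 in the first set. Their part in the EpiSC, ADE and NACL results was not tested. The third EpiSC array stood apart from the other 2 in all 3 ligands, although it correlated with them at 0.969 and 0.975 over all genes tested, so ligand results are also given without it.

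**Figure D1:**
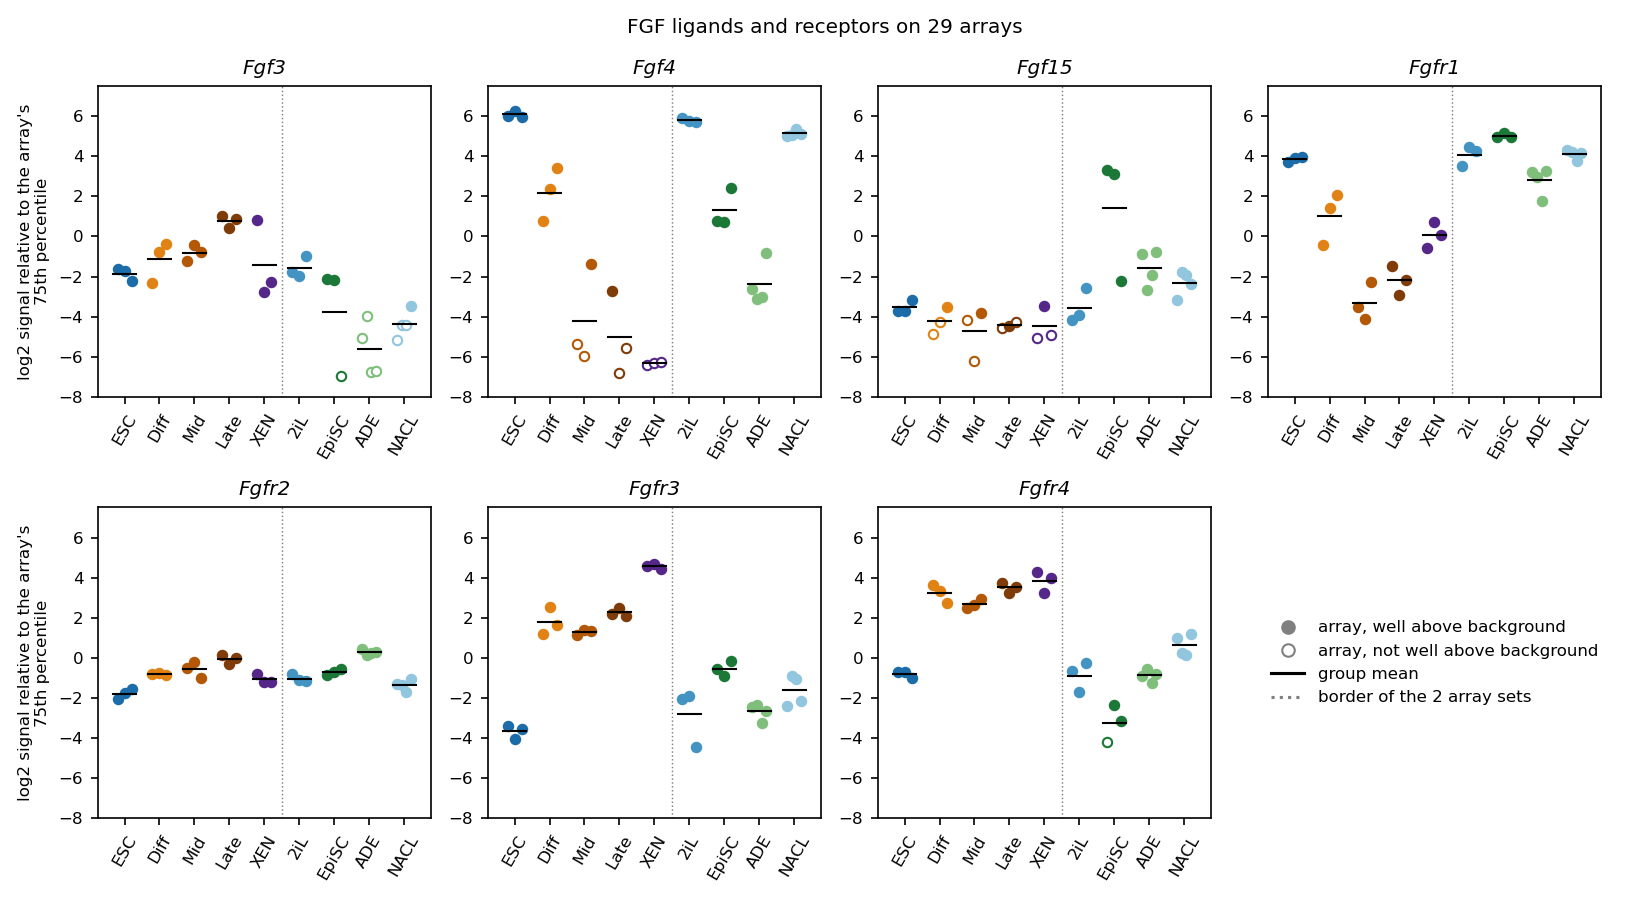
Level of each of the 7 members on each of the 29 arrays (vertical axis, log2 signal minus the array's 75th percentile; horizontal axis, the 9 groups), with group means as bars and open points for arrays not well above background. Fgf4 runs from 6.09 in ESC to -6.32 in XEN, Fgfr3 from -3.66 to 4.59, and Fgf15 is high in 2 of the 3 EpiSC arrays only.

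Fgf4, the ligand that naive cells make for their neighbours, was high in every naive culture and fell on both routes to endoderm. Its levels were 6.02, 6.28 and 5.98 in ESC, 0.77, 2.34 and 3.41 in Diff, -5.36, -5.96 and -1.38 in Mid, -2.70, -6.81 and -5.54 in Late, and -6.40, -6.29 and -6.27 in XEN. ESC and Diff did not overlap, nor did Diff and Mid. Only 1 of 3 Mid and 1 of 3 Late arrays were well above background, and no XEN array was. Fgf4 fell from ESC to Diff by 3.92 ± 0.95 (SE, n = 3 and 3; limma adjusted p = 0.00168), which is 15.1-fold lower, and then again from Diff to Mid (-6.40 ± 0.95, adjusted p = 2.47e-05). ESC were at least 1730-fold above XEN, a bound set by the dimmest signals well above background in XEN. The difference of nEnd, the mean of Mid and Late, from XEN was 1.70 (adjusted p = 0.104; at least 1.03-fold), and was called with scan day as a block (1.95, adjusted p = 0.0441) and without the second Mid or Late array (2.13 and 2.15).

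In the second set Fgf4 stood at 5.90, 5.78 and 5.69 in 2iL, 5.02, 5.07, 5.33 and 5.12 in NACL, 0.79, 0.71 and 2.44 in EpiSC, and -2.62, -3.12, -3.01 and -0.83 in ADE. Fgf4 was bright in naive cells of either medium. All NACL arrays lay below all 2iL arrays, but the difference of -0.66 was not called (adjusted p = 0.765). EpiSC had 22.3-fold less Fgf4 than 2iL (a difference of -4.48, adjusted p = 0.000512). ADE had 13.1-fold less than EpiSC (-3.71 ± 0.89, n = 4 and 3, adjusted p = 0.00182), and -3.15 without the third EpiSC array (adjusted p = 0.0176). The falls from ESC to Diff and from EpiSC to ADE differed by -0.21 ± 1.30 (adjusted p = 0.919). In the order of group means ESC, 2iL, NACL and Diff were each separated by more than the sum of both standard deviations (SD), as were EpiSC and ADE; Diff and EpiSC were not, nor any neighbours from ADE down to XEN.

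Fgf15 was highest in 2 of the 3 EpiSC arrays and was well above background on every array of the second set. Its levels were 3.31, 3.09 and -2.22 in EpiSC, -0.87, -2.67, -1.92 and -0.80 in ADE, -4.18, -3.92 and -2.59 in 2iL, and -3.15, -1.79, -1.91 and -2.40 in NACL. The first and second EpiSC arrays were far above all others, while the third lay within the range of ADE and NACL. EpiSC were 31.0-fold above 2iL (4.95, adjusted p = 0.000195), and 6.76 on the log2 scale without the third EpiSC array (adjusted p = 4.65e-08). Fgf15 fell from EpiSC to ADE by 2.96 ± 0.89 (adjusted p = 0.0111), with overlapping groups. This call rested on single arrays: it was lost without the first or the second EpiSC array (adjusted p = 0.112 and 0.102), while without the third the difference was -4.76 (adjusted p = 4.43e-06). The call was also lost when limma was fitted to only the EpiSC and ADE arrays (-2.96, adjusted p = 0.128). On the slides that hold both groups the difference was -5.07 and -1.80.

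In the first set Fgf15 was dim throughout. ESC read -3.70, -3.70 and -3.18, all well above background. Of the other 12 arrays of that set, 4 were well above background, and levels ran from -6.23 to -3.49. No comparison within that set called it, and Diff minus ESC was -0.70 (adjusted p = 0.584).

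Fgf3 was called in none of the 8 comparisons with all arrays in. It read -1.65, -1.73 and -2.25 in ESC, -2.31, -0.77 and -0.36 in Diff, -1.25, -0.41 and -0.76 in Mid, 1.02, 0.41 and 0.86 in Late, and 0.83, -2.78 and -2.29 in XEN. Late lay above Mid on every array, and above ESC and Diff, but Late minus Mid (1.57) had an adjusted p of 0.395. The first XEN array stood with Late and the other 2 with ESC. The difference of nEnd from XEN was 1.39 (adjusted p = 0.213), 2.51 without that array (adjusted p = 0.0346) and 0.78 with normexp and quantile scaling (adjusted p = 0.0414).

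In the second set Fgf3 read -1.77, -1.95 and -0.96 in 2iL, -2.12, -2.19 and -6.98 in EpiSC, -5.06, -3.99, -6.78 and -6.72 in ADE, and -5.17, -4.41, -4.40 and -3.46 in NACL. No ADE array and 1 of 4 NACL arrays were well above background. All NACL arrays lay below all 2iL arrays, and NACL minus 2iL was -2.80 (adjusted p = 0.0660), or -2.69 with cell line as a block (adjusted p = 0.0278). ADE were at least 1.78-fold below EpiSC (adjusted p = 0.124); without the third EpiSC array, which was not well above background for Fgf3, the fitted difference was -3.48 (adjusted p = 0.00165). EpiSC minus 2iL was -2.20 (adjusted p = 0.0818); it was called without the first or second EpiSC array (-3.02 and -2.99), and was -0.59 without the third (adjusted p = 0.641). The only neighbours in the order of group means that differed beyond their SDs were Late and Mid, at the top.

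Fgfr1, the receptor of naive and primed epiblast, was high in all pluripotent groups and fell on leaving them. It read 3.69, 3.89 and 3.97 in ESC, -0.41, 1.44 and 2.04 in Diff, -3.54, -4.11 and -2.28 in Mid, -1.47, -2.90 and -2.17 in Late, and -0.58, 0.71 and 0.06 in XEN. ESC, Diff and Mid did not overlap, and nEnd arrays lay below all XEN arrays. The fall from ESC to Diff was 7.09-fold (-2.83 ± 0.52, n = 3 and 3, adjusted p = 0.000121), and that from Diff to Mid 20.2-fold (-4.33 ± 0.52, adjusted p = 2.22e-06). Cultured nEnd had 7.02-fold less signal than XEN (-2.81 ± 0.45, n = 6 and 3, adjusted p = 2.73e-05). The 6 nEnd arrays are 3 Mid and 3 Late arrays whose same numbers were taken as pairs. The model treats them as independent, so this SE and p-value may be too small. In the authors' series matrix the difference was -0.59 and not called (adjusted p = 0.069). On the main probe XEN thus lay between ESC and nEnd.

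In the second set Fgfr1 read 3.50, 4.46 and 4.25 in 2iL, 4.33, 4.21, 3.76 and 4.14 in NACL, 4.95, 5.13 and 4.96 in EpiSC, and 3.19, 2.97, 1.77 and 3.26 in ADE. NACL and 2iL differed by 0.04 (adjusted p = 0.978). EpiSC lay above every 2iL array, but the difference of 0.94 was not called (adjusted p = 0.160). ADE had 4.64-fold less than EpiSC (-2.22 ± 0.49, adjusted p = 0.000928) and did not overlap with it. The highest of the 9 group means, that of EpiSC, exceeded the next, NACL, by more than their SDs.

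Fgfr1 is read by 3 probes, of which 2 moved in the same directions and 1 was flat. The probe A_55_P2057777, used above, has the highest mean. The probe A_55_P1967022 also fell from ESC to Diff (-2.70, adjusted p = 6.16e-06), from Diff to Mid (-1.92, adjusted p = 0.000788) and from EpiSC to ADE (-2.66). It was called higher in EpiSC than 2iL (1.16, adjusted p = 0.0226), where the main probe was not called, and its difference between nEnd and XEN was -0.86 (adjusted p = 0.0502). The authors' series matrix lists Fgfr1 under A_55_P1967015, yet over the 29 arrays its values followed A_55_P1967022 (r = 0.993) and not that probe (r = 0.469). The probe A_55_P1967015 was flat, with group means from -0.16 to 0.30, and was called only for XEN minus ESC (-0.40, adjusted p = 0.0463). Where on the transcripts the probes lie was not examined here.

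Fgfr2, the receptor of primitive endoderm in the blastocyst, moved little on its main probe, where every group mean lay between -1.79 and 0.28. It read -2.05, -1.76 and -1.55 in ESC, -0.81, -0.76 and -0.85 in Diff, -0.51, -0.21 and -0.99 in Mid, 0.13, -0.29 and -0.03 in Late, and -0.78, -1.22 and -1.19 in XEN. The lowest arrays were those of ESC. Fgfr2 rose 1.98-fold from ESC to Diff (0.98 ± 0.20, adjusted p = 0.0003), and nEnd was 1.68-fold above XEN with overlapping arrays (0.75 ± 0.17, adjusted p = 0.00116). With each array centred on its median the nEnd difference from XEN was 0.39 and not called (adjusted p = 0.209).

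In the second set Fgfr2 read -0.81, -1.12 and -1.16 in 2iL, -1.28, -1.33, -1.69 and -1.06 in NACL, -0.87, -0.72 and -0.55 in EpiSC, and 0.45, 0.14, 0.24 and 0.28 in ADE. All ADE arrays lay above all others of that set. The rise from EpiSC to ADE was 1.99-fold (0.99 ± 0.19, adjusted p = 0.000164), and the rises on the ESC and EpiSC routes differed by -0.01 ± 0.27 (adjusted p = 0.981). The second probe, A_51_P432403, was well above background on no ESC, 2iL or NACL array. It rose by 3.85 from ESC to Diff and by 2.40 from EpiSC to ADE, was higher in nEnd than XEN by 1.52 (adjusted p = 0.0044) and in EpiSC than 2iL by 1.86 (adjusted p = 0.0027), where the main probe was not called. Its differences from ESC and 2iL are fitted values against a group that has only a bound. Its rises on the ESC and EpiSC routes differed by 1.45 (adjusted p = 0.0902). No neighbours in the order of the main probe's group means differed beyond their SDs.

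Fgfr3 had the largest change of the 7 members from ESC to Diff. It read -3.39, -4.04 and -3.57 in ESC, 1.20, 2.56 and 1.64 in Diff, 1.15, 1.42 and 1.35 in Mid, 2.20, 2.50 and 2.11 in Late, and 4.61, 4.70 and 4.46 in XEN. Every endoderm array lay above every ESC array, and XEN lay above all nEnd arrays. The rise from ESC to Diff was 44.2-fold (5.47 ± 0.49, n = 3 and 3, adjusted p = 5.08e-09), and XEN were 305-fold above ESC (8.25, adjusted p = 2.63e-12). Cultured nEnd had 6.98-fold less than XEN (-2.80 ± 0.42, n = 6 and 3, adjusted p = 1.13e-05). As for Fgfr1, the 6 nEnd arrays are paired Mid and Late arrays that the model treats as independent. All Late arrays lay above all Mid arrays, with a difference of 0.96 that was not called (adjusted p = 0.260).

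In the second set Fgfr3 read -2.06, -1.89 and -4.42 in 2iL, -2.37, -0.89, -1.04 and -2.15 in NACL, -0.57, -0.91 and -0.17 in EpiSC, and -2.43, -2.34, -3.23 and -2.63 in ADE. EpiSC were 4.73-fold above 2iL (2.24, adjusted p = 0.000686), and ADE 4.32-fold below EpiSC (-2.11 ± 0.46, adjusted p = 0.000742), with no overlap in either. NACL minus 2iL was 1.18 (adjusted p = 0.125), and 1.63 without the second 2iL array (adjusted p = 0.0390). Fgfr3 thus rose on the way from ESC to Diff and fell on the way from EpiSC to ADE, and the difference between these differences was 7.58 ± 0.67 (adjusted p = 1.13e-08). Of the 7 members 2, Fgfr3 and Fgfr4, were called in this test, both higher, where 21.9% of all genes were higher (36.8% called). Without the third EpiSC array Fgf15 (4.07, adjusted p = 0.000873) and Fgf3 (4.21, adjusted p = 0.0048) were called as well. The second probe, A_65_P06147, moved less. It gave 0.91 for Diff minus ESC (adjusted p = 0.112), 2.99 for XEN minus ESC (adjusted p = 4.21e-06), -1.88 for nEnd minus XEN (adjusted p = 0.000366), -0.44 for ADE minus EpiSC (adjusted p = 0.511) and 0.28 for EpiSC minus 2iL (adjusted p = 0.725). Its difference of differences was 1.35 (adjusted p = 0.0958). RefSeq lists an Fgfr3 pseudogene, and whether either probe also reads it was not tested.

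Fgfr4, the receptor that endocrine Fgf15 uses with Klb, was high in all endoderm cultures of the first set. It read -0.69, -0.70 and -0.99 in ESC, 3.62, 3.35 and 2.76 in Diff, 2.51, 2.62 and 2.94 in Mid, 3.74, 3.24 and 3.56 in Late, and 4.30, 3.23 and 3.96 in XEN. ESC lay below all others without overlap, while among the endoderm groups Late and XEN lay above Mid and the other pairs overlapped. The rise from ESC to Diff was 16.4-fold (4.04 ± 0.40, adjusted p = 2.69e-08), and XEN were 24.7-fold above ESC (4.63, adjusted p = 1.17e-09). The difference of nEnd from XEN was -0.73 (adjusted p = 0.0976), -1.08 with each array centred on its median (adjusted p = 0.0147) and -1.03 without the second XEN array (adjusted p = 0.0394). Late minus Mid was 0.82 (adjusted p = 0.236).

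In the second set Fgfr4 read -0.66, -1.71 and -0.27 in 2iL, 0.99, 0.25, 0.16 and 1.19 in NACL, -4.19, -2.37 and -3.14 in EpiSC (2 of 3 well above background), and -0.89, -0.54, -1.26 and -0.80 in ADE. NACL lay above 2iL and EpiSC below it, both without overlap. NACL were 2.88-fold above 2iL (1.53 ± 0.37, n = 4 and 3, adjusted p = 0.0108). That call was lost with cell line as a block (1.51, adjusted p = 0.0695), without the second 2iL array (1.11, adjusted p = 0.0813), and with the mean of both probes (0.90, adjusted p = 0.0722). It was also lost when limma was fitted to only the NACL and 2iL arrays (1.53, adjusted p = 0.117). EpiSC were 5.11-fold below 2iL (-2.35, adjusted p = 4.54e-05), and ADE 5.13-fold above EpiSC (2.36 ± 0.37, adjusted p = 2.46e-05). The rise from ESC to Diff exceeded that from EpiSC to ADE by 1.68 ± 0.55 (adjusted p = 0.0189); it was not called without the first Diff array (adjusted p = 0.0526) or the second EpiSC array (adjusted p = 0.0751). The second probe, A_55_P2121871, rose from ESC to Diff (1.63, adjusted p = 0.000685) but gave -0.25 for ADE minus EpiSC (adjusted p = 0.681), 0.13 for EpiSC minus 2iL (adjusted p = 0.861) and 0.27 for NACL minus 2iL (adjusted p = 0.832), so none of these 3 calls held on it and the first and second had the other sign. Over all 4 receptors, another probe of the gene was called the same way in 13 of 24 cases where the main probe was called, and the opposite way in 0.

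**Figure D2:**
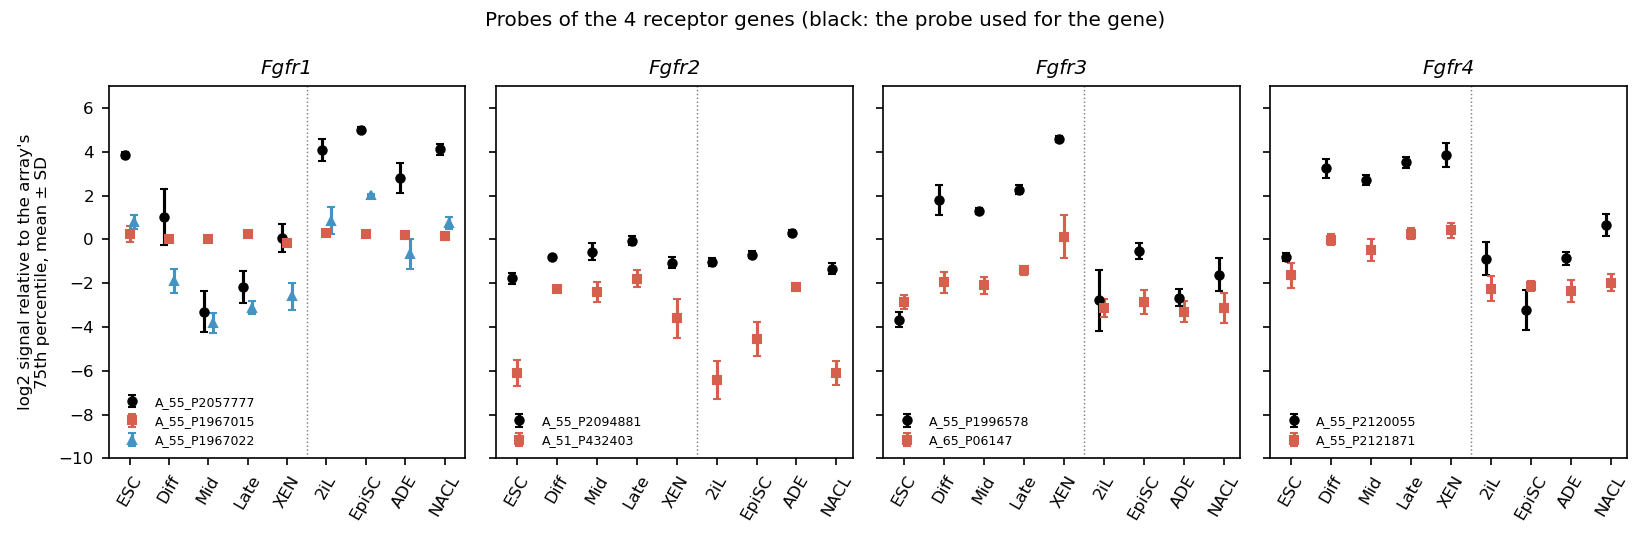
Group mean level of every probe of the 4 receptors (vertical axis, log2 signal minus the array's 75th percentile; horizontal axis, the 9 groups; bars, SD over the 3 or 4 arrays). The second Fgfr3 and Fgfr4 probes move less than the main ones, and 1 of the 3 Fgfr1 probes is flat, between -0.16 and 0.30.

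Diff minus ESC asks what the naive cells became in Activin, CHIRON and LIF. Of the 7 members 3 rose (Fgfr2, Fgfr3 and Fgfr4) and 2 fell (Fgf4 and Fgfr1), where 23.5% of all genes rose and 18.9% fell (42.4% called). The second Fgfr3 probe and the flat Fgfr1 probe were not called. Naive markers fell in the same step, 5 of 7 with a median difference of -3.08, and their part in the falls of Fgf4 and Fgfr1 was not tested. Of 14 other FGF ligands tested of 19 on the array, 3 rose and 2 fell (median 0.23): Fgf10, a mesenchymal ligand of Fgfr2, rose by 4.42 (adjusted p = 2.39e-05), Fgf5, a primed epiblast ligand, was at least 3.15-fold higher, and Fgf1, which binds all receptors, rose by 2.50 (adjusted p = 0.00378). Fgf1 was well above background on 1 of 3 ESC arrays. Of 25 co-receptors and extracellular regulators 8 rose and 4 fell (median 0.08). Flrt3, a membrane protein that binds FGF receptors, rose by 6.27 (adjusted p = 2.03e-13), Klb rose by 5.54 (adjusted p = 1.22e-10), and the glypican Gpc6 was at least 7.14-fold higher. Klb and Fgfr4 both rose here, while Fgf15 was not called.

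Below the receptors, members of the kinase route and its feedback genes were called in both directions. Of 20 adaptors and cascade genes 6 rose and 4 fell between ESC and Diff (median 0.27), with Mapk3 (Erk1) up by 1.28, Sos2 up by 1.27 and Cbl, a ubiquitin ligase for active receptors, down by a difference of -1.62. Of 17 ERK feedback and target genes 7 rose and 3 fell (median 1.02, against -0.04 over all genes). Egr1, an immediate early transcription factor, rose by 6.64, the ERK phosphatase Dusp4 by 5.90 and Phlda1 by 4.01. Egr1 was well above background on 1 of 3 ESC arrays.

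**Figure D3:**
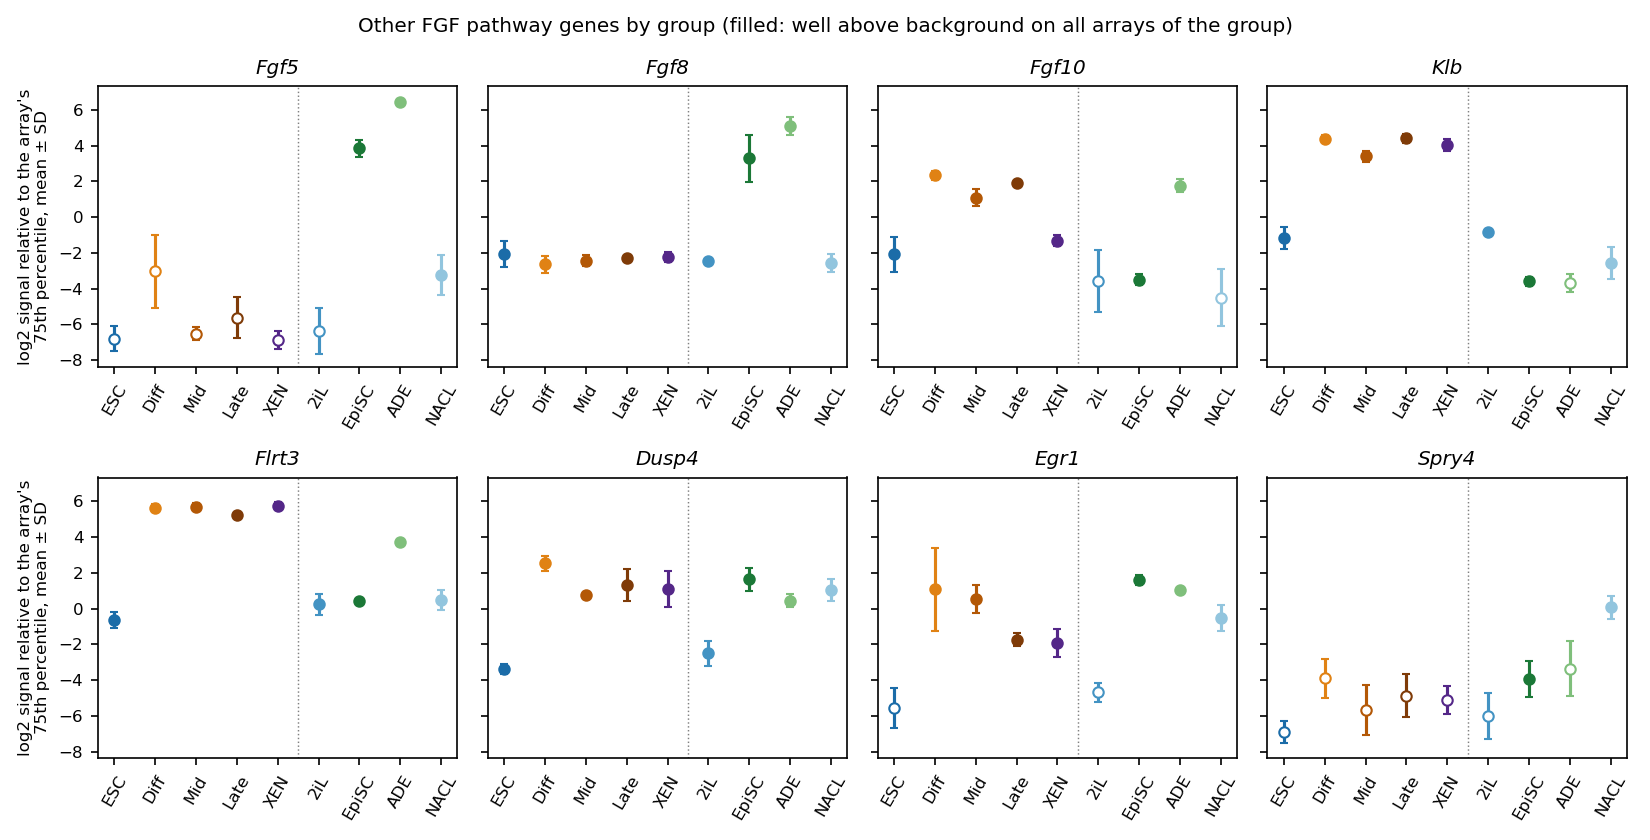
Group mean level of 8 further FGF pathway genes (vertical axis, log2 signal minus the array's 75th percentile; horizontal axis, the 9 groups; bars, SD over the 3 or 4 arrays; open points, groups in which not every array was well above background). Klb has means from 3.41 to 4.41 in Diff, Mid, Late and XEN and below 0 in every other group, and Fgf5 and Fgf8 are high in EpiSC and ADE.

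The comparison of Mid with Diff asks what passaging did to these genes. Of the 7 members 0 rose and 2 fell, Fgf4 and Fgfr1, where 12.3% of all genes rose and 16.8% fell (29.1% called); the other 5 had differences from -0.55 to 0.34 that were not called. Among these were the receptors that had risen in Diff, with -0.50 for Fgfr3 (adjusted p = 0.494) and -0.55 for Fgfr4 (adjusted p = 0.335). Naive markers fell in the same step, 4 of 7 with a median difference of -2.81, and their part in the falls of Fgf4 and Fgfr1 was not tested. Of the other ligands 0 rose and 1 fell of 14. Of co-receptors 6 rose and 3 fell of 25, led by Gpc1 (-4.56), the heparan sulfate 6-O-sulfotransferase Hs6st2 (3.44) and the sulfotransferase Ndst1 (2.72). Of the cascade 3 rose and 1 fell of 20 (Braf 1.12, Cbl 0.88, Shc1 -0.82), and of feedback genes 3 rose and 5 fell of 17. Ier3 rose by 2.48, while Etv1 (-2.22) and Etv4 (-2.16), ETS factors that report FGF signalling in many tissues, fell.

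Late minus Mid asks whether longer culture changed the set, and no member was called, where 3.78% of all genes were higher and 3.07% lower (6.84% called). With limma 2 of 7 members had an unadjusted p under 0.05, and with normexp and quantile scaling 2 were called, Fgf3 (1.15, adjusted p = 0.0341) and Fgfr3 (0.90, adjusted p = 0.0382). In the authors' series matrix 1 was, Fgfr3 (0.84, adjusted p = 0.0184). Fgf3, Fgfr3 and Fgfr4 were the members whose Late arrays lay all above Mid. The share of all genes separated in this way was not computed, and the median difference of all genes was 0.12. Same-numbered Mid and Late arrays deviated together (correlations 0.218, 0.129 and 0.140), and with the replicate block 0 genes were called in all and 0 members. Mid 1 and Late 1 shared a slide, as did Mid 2 and Late 2, so slide and passage series cannot be told apart for them. Of the 4 pathway lists, 1 gene was called, the immediate early gene Fos (-2.57, adjusted p = 0.0280).

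The comparison of nEnd minus XEN asks how the cultures made from ESC differ from the extraembryonic reference line. Fgfr2 was higher and Fgfr1 and Fgfr3 were lower in nEnd, 1 and 2 of 7 members, where 16.6% of all genes were higher and 24.5% lower (41.1% called). Neither other Fgfr1 probe was called. Of other ligands 3 of 14 were higher and 0 lower (median 0.54): Fgf10 by 2.81 (adjusted p = 0.000787), Fgf22 by at least 1.51-fold, and Fgf1 by 1.52 (adjusted p = 0.0382). Of 25 co-receptors 5 were higher and 8 lower, led by the syndecan Sdc3 (3.36), the glypican Gpc4 (-3.03) and the heparan endosulfatase Sulf2 (2.59). Of the cascade 5 were higher and 7 lower, led by the docking protein Gab1 (2.92), Braf (-1.79) and Sos2 (-1.17). Of feedback genes 0 were higher and 4 lower, led by Myc (-2.53), Spred2 (-1.35) and Phlda1 (-1.08). Klb, at 3.41 in Mid, 4.41 in Late and 4.05 in XEN, was not called.

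**Figure D4:**
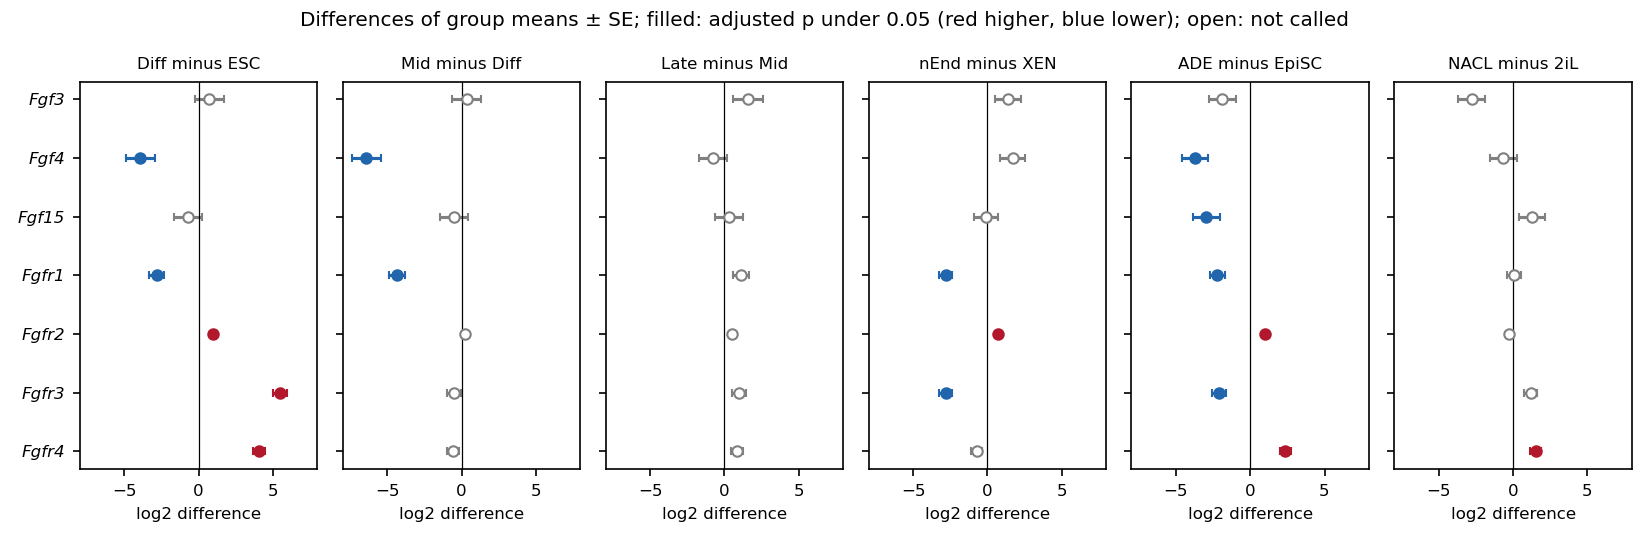
Log2 difference of each member in the main comparisons (points, with SE as bars; filled points are called at a limma adjusted p under 0.05). Fgf4 and Fgfr1 are lower in Diff than ESC and in ADE than EpiSC, while Fgfr3 is higher in the first (5.47) and lower in the second (-2.11).

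ADE minus EpiSC asks which FGF genes change as EpiSC cultures differentiate toward definitive endoderm. Definitive endoderm markers rose, 6 of 6 with a median of 5.49 (Cer1 by 6.54, Hhex by 6.05, Gsc by 5.86). Primitive endoderm markers rose too, 5 of 6 with a median of 5.34 (Gata6 by 6.05, Gata4 by 6.01, Sox7 by 5.97). The part of either list in the results was not tested. Here 6 of 7 members were called: Fgfr2 and Fgfr4 rose, and Fgf4, Fgf15, Fgfr1 and Fgfr3 fell, where 16.9% of all genes rose and 20.7% fell (37.6% called). The second probes of Fgfr3 and Fgfr4 and the flat Fgfr1 probe were not called, and the Fgf15 call rested on single arrays. Fibroblast markers fell too, 3 of 5 with a median of -3.25, and their part was not tested. Of other ligands 3 rose and 6 fell of 14 (median -0.50). Fgf10 rose by 5.24 (adjusted p = 1.54e-06), Fgf21, an endocrine ligand of Klb, fell by 3.80 and Fgf9 by 2.58. Fgf21 and Fgf9 were each well above background on 1 of 4 ADE arrays. Fgf5 and Fgf8, the gastrulation ligand, had their highest group means in ADE, at 6.42 and 5.09, and stood at 3.85 and 3.29 in EpiSC. Of 25 co-receptors 4 rose and 9 fell: Flrt3 rose by 3.27, and the FGF carrier proteins Fgfbp1 and Fgfbp3 fell by 3.29 and 2.94. Klb stayed low, at -3.59 in EpiSC and -3.68 in ADE. Of the cascade 2 rose and 4 fell (Map2k1 -1.29, Shc1 -1.23, Braf -0.98), and of feedback genes 0 rose and 6 fell (Etv1 -2.99, Dusp5 -2.19, Spry2 -1.89).

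NACL minus 2iL puts naive cells of the same lines in the 2 media that the background above describes. Fgfr4 was the only member called, 1 of 7, where 8.26% of all genes were called (4.12% higher, 4.14% lower). With cell line as a block, which pairs these arrays, Fgfr4 was not called (adjusted p = 0.0695), Fgf3 was (adjusted p = 0.0278), and 251 genes were called in place of 1350. Primitive endoderm markers were also higher, 3 of 6 with a median of 1.08, and their part in the Fgfr4 result was not tested. Of ERK feedback genes 8 of 17 rose and 0 fell (median 1.06), while of the cascade 0 of 20 were called by limma and 1 had an unadjusted p under 0.05. Spry4, a feedback inhibitor of Ras signalling, was at least 27.0-fold higher, with Egr1 up by 4.16. Egr1 was well above background on 1 of 3 2iL arrays. Fgf5 was at least 2.76-fold higher, the only one of 14 other ligands called. Of co-receptors 0 rose and 3 fell of 25: Klb by 1.75 (adjusted p = 0.00323), Hs6st1 by 1.05 and Sulf1 by 0.98. Klb and Fgfr4 had opposite signs here and the same sign between ESC and Diff. Diff had 7 to 8 days with Activin, CHIRON and LIF in another line and NACL at least 3 passages in N2B27 with them, so time and line differ between the 2 comparisons. The difference between the differences was called for Fgfr1 (-2.87 ± 0.72, adjusted p = 0.00379), Fgfr2 (1.29 ± 0.27, adjusted p = 0.000846), Fgfr3 (4.29 ± 0.67, adjusted p = 3.63e-05) and Fgfr4 (2.51 ± 0.55, adjusted p = 0.00118), 4 of 7 members, where 17% of all genes were higher and 13.3% lower (30.3% called). For Fgf4 it was -3.26 (adjusted p = 0.0608), and for Fgf3 3.53 (adjusted p = 0.0543). These were called without the third Diff array (Fgf4, -3.88) and without Diff 1 or NACL 4 (Fgf3, 4.11 and 3.83).

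XEN minus ESC and EpiSC minus 2iL give the reference cultures. In each of them the cell lines differ between the groups, so line and cell state cannot be told apart. XEN had 3 members higher (Fgfr2, Fgfr3, Fgfr4) and 2 lower (Fgf4, Fgfr1) than ESC, the same members and directions as Diff, where 30.7% of all genes were higher and 21.5% lower (52.1% called). Both comparisons share the ESC arrays. Of other ligands 0 were higher and 3 lower of 14 (Fgf21, Fgf22 and Fgf17, by at least 1.15-fold, 1.63-fold and 1.43-fold). Of co-receptors 14 were higher and 6 lower of 25, led by Flrt3 (6.38), Klb (5.20) and Hs6st2 (4.84). Of the cascade 8 were higher and 3 lower of 20, led by Gab1 (-3.16), Sos2 (2.54) and Braf (2.06), and of feedback genes 7 were higher and 2 lower of 17, led by Phlda1 (5.43), Etv1 (-5.10) and Dusp4 (4.45). EpiSC had Fgf15 and Fgfr3 higher and Fgf4 and Fgfr4 lower than 2iL, 4 of 7 members, where 21.5% of all genes were higher and 20.1% lower (41.6% called). The second probes of Fgfr3 and Fgfr4 were not called. Of other ligands 6 of 14 were higher and 0 lower (median 1.31), Fgf5 by at least 370-fold, Fgf8 by 5.75 and Fgf21 by 3.56. Of co-receptors 13 were higher and 3 lower of 25, led by Fgfbp3 (4.62), Fgfbp1 (4.22) and Gpc6 (at least 7.76-fold), and of the cascade 8 were higher and 2 lower of 20, led by Gab1 (-2.16), Shc1 (1.44) and Sos2 (1.38). Of feedback genes 11 of 17 were higher and 0 lower, led by Egr1 (6.27), Dusp4 (4.13) and Dusp6 (3.67). Fgf21 and Egr1 were each well above background on 1 of 3 2iL arrays. 

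Among the 29 arrays, with the mean of each array set taken off, the genes most like each ligand were Sox2 (r = 0.970) and Syk (0.968) for Fgf4, Bcl11a (0.843) and Fabp7 (0.836) for Fgf15, and Pagr1a (0.742) and Ttc9c (0.727) for Fgf3. Those most like each receptor were Cask (0.951) and Cth (0.945) for Fgfr1, B3gat3 (0.921) and Naaa (0.921) for Fgfr2, P4ha2 (0.931) and Lin28a (0.906) for Fgfr3, and Kdelr3 (0.938) and Tfpi (0.899) for Fgfr4. Among the members Fgf4 and Fgfr1 ran together (0.742), Fgf4 and Fgfr2 apart (-0.738), and Fgfr3 and Fgfr4 together (0.572). These are descriptions over arrays that share groups and array sets.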

How the data were processed

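RNA from lysed cultures was labelled with Cy3 and hybridised to 1-colour Agilent arrays. The deposited scanner files hold spot intensity read by Agilent Feature Extraction, which also subtracted the background, per the file headers. The submitters' processing notes name version 9.1, and the headers name later ones that differ between array sets. The authors also deposited a series matrix whose log2-like values have medians of 5.94 to 5.949 and follow the scanner signal at r from 0.909 to 0.937; no source used here gives its log base, background step or scaling, and it was an alternative only. It has 1 value per member, which for the receptors does not always follow the probe it is listed under.

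Spots with outlier marks were left out (132 to 243 of 59305 per array), spots of a probe were averaged, and log2 of the deposited background-corrected signal had the array's 75th percentile taken off. No probe was saturated. Accessions gave 27663 of 55681 probes 1 gene symbol and 28018 none (annotation of GRCm38.p6, for names only; 717 accessions differed between array sets, and 135 values were missing). The probe with the highest mean stands for a gene, and 16342 genes whose probe passed the background mark throughout at least 1 group were tested. One limma model (3.58.1, R 4.3.3, with lmFit and eBayes) of 9 group means over all 29 arrays gave differences, with Benjamini-Hochberg adjustment per comparison. It was tested on simulated data for Diff minus ESC, with 100 of 16342 genes changed. A log2 change of 1 was recovered for 36 of the 100, with 14 false calls. A log2 change of 2 was recovered for 70, with 14 false calls. Tables used Python 3.11.15 with pandas 2.3.3 and numpy 2.4.6, and plots matplotlib 3.10.9. The number of arrays limits the precision.

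Where every array of a group failed the background mark, the gene has only a bound there, and the fold is written "at least". It divides the bright mean by the dim mean after raising dim values to the lowest signal above background on their array. Medians of a list use fitted values. Named genes are every member, the 3 called genes with the largest absolute difference in each pathway list and comparison, other ligands by level, and the 2 genes most like each member. The members and lists were chosen with earlier results of these data known. Same-numbered Mid and Late arrays deviated together (correlations 0.218, 0.129 and 0.140), so these numbers were taken as pairs. The first and second of these pairs each shared a slide and the third did not. NACL and 2iL were also paired by cell line. Alternatives were other scalings, probe rules, filters, sample sets and blocks, and leaving out each array; slide as a fixed block was added after the data were seen.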

Additional observations from a re-analysis of the deposited data

Results flagged for a closer look

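The change from ESC to Diff differed from that from EpiSC to ADE for Fgfr3, by 7.58 on the log2 scale, and for Fgfr4, by 1.68, each by a test of the difference itself in limma (adjusted p = 1.13e-08 and 0.0189). For Fgfr3 the directions were opposite, 3 of 3 Diff arrays above all ESC arrays and 4 of 4 ADE arrays below all EpiSC arrays. On their second probes the same tests gave 1.35 (adjusted p = 0.0958) and 1.88 (adjusted p = 0.00424). The change from ESC to Diff differed from that from 2iL to NACL for Fgfr1 (-2.87), Fgfr2 (1.29), Fgfr3 (4.29) and Fgfr4 (2.51). The second probes of Fgfr3 and Fgfr4 gave 0.91 (adjusted p = 0.307) and 1.36 (adjusted p = 0.0436) there. Each of these tests sets 1 array set against the other, with its own slides, scan day and scanner software, and for Diff against NACL also other cell lines and times in culture; what these contribute cannot be told apart from the groups. In groups of 4 arrays, no member had an array whose gap to the rest passed Dixon's value, in 24 checks, of which chance alone would pass about 1 in 20.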

How the results depend on the processing

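Of 994 member differences recomputed under alternatives, 928 kept their direction and side of the threshold, 13 lost the call, 26 gained one, and 27 changed sign with no call on either side. Genes called in Mid minus Diff (4761) were 2909 with median centring, 2729 with only those groups' arrays and 1941 with the replicate block; those of Late minus Mid (1118) were 384, 255 and, with the block, 0 by limma (3491 at an unadjusted p under 0.05). Those of NACL minus 2iL (1350) were 850 and 451 in the first 2 of these settings, 320 with the replicate block and 251 with the cell line block. Members called in Late minus Mid (0) were 2 with normexp and quantile scaling and 1 in the series matrix; those of NACL minus 2iL (1) were 0 with the mean of probes and 2 with slide as a random block. Leaving out 1 array gave 409 to 1270 genes for Late minus Mid (493 without Mid 1, 659 without Mid 2, 438 without Late 1, 409 without Late 3), 822 (without 2iL 1) to 1664 for NACL minus 2iL, and 1 to 4 members for the Diff and ADE difference of differences (1 without Diff 1 or EpiSC 2, 4 without EpiSC 3). Median centring moved the median of all genes by 0.36 in Diff minus ESC (4247 higher and 1484 lower calls, against 3839 and 3090), by -0.35 in nEnd minus XEN (1544 and 4882) by -0.16 in Late minus Mid (90 and 294, against 617 and 501), by 0.64 in XEN minus ESC (7027 and 1946), by 0.12 in EpiSC minus 2iL and by 0.39 in both differences of differences (3612 and 1295, and 2745 and 715). Calls in Late minus Mid split 694 to 873 with normexp, 640 to 827 in the series matrix and 79 to 176 with only those arrays, and in Mid minus Diff 2430 to 2167 with normexp. Those of NACL minus 2iL split 105 to 215 with the replicate block and 89 to 162 with the cell line block, against 673 to 677.

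Uncalled signs turned as follows. The series matrix gave -0.082 for Fgfr2 in Mid minus Diff, and scan day as a block 0.010 for Fgf15 in nEnd minus XEN. Fgfr1 in NACL minus 2iL was -0.058 with normexp, -0.071 in the series matrix and -0.077 with the mean of probes. Median centring gave 0.18 for Fgf4 and 0.38 for Fgfr2 in the difference of differences between Diff and ADE. Without single arrays Fgf15 ran from -0.97 to 0.24 and Fgf3 from -0.24 to 0.74 in Mid minus Diff, Fgf15 from -0.45 to 0.77 and Fgf4 from -1.94 to 0.64 in Late minus Mid. Fgf15 ran from -0.37 to 0.42 in nEnd minus XEN, Fgfr1 from -0.24 to 0.24 in NACL minus 2iL, and Fgf3 from -0.66 to 1.14 in XEN minus ESC. In the difference of differences Fgf4 ran from -0.83 to 0.49, Fgfr1 from -1.12 to 0.10 and Fgfr2 from -0.14 to 0.11. The replicate block was also fitted where not all same-numbered arrays deviated together (for ADE and EpiSC, correlations 0.305, -0.124 and 0.315). With it, Fgf15 in ADE minus EpiSC (adjusted p = 0.131) and Fgfr4 in NACL minus 2iL (adjusted p = 0.155) lost their calls. Fgfr4 in nEnd minus XEN (adjusted p = 0.0465) and Fgf3 in NACL minus 2iL (adjusted p = 0.0314) gained one. Beyond the alternatives that use fewer arrays, the cause of these changes was not tested.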

Other observations

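Of the 19 other FGF ligands on the array, 14 passed the filter on dim probes. Fgf23, an endocrine ligand of bone, had group means between 1.85 and 2.97 in all 9 groups. Fgf5 and Fgf8 were both high in EpiSC and ADE, and Fgf8 had means from -2.64 to -2.08 in ESC and Diff. Fgf10 had its highest group mean in Diff, at 2.34, then Late at 1.91 and ADE at 1.75, and lay at -2.08 in ESC, -1.31 in XEN and -3.49 in EpiSC. Whether the dim ligands are made at all in these cells cannot be read from a signal near background.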
